A study of Arabidopsis thaliana with 12 samples.

Results

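The type-A response regulators of Arabidopsis are a family of 10 genes that restrain the cytokinin response, and their transcripts were followed here across wild type and lines with lost or raised LSD1. The members were taken by locus identifier from a count table of 27416 gene models: ARR3 (AT1G59940), ARR4 (AT1G10470), ARR5 (AT3G48100), ARR6 (AT5G62920), ARR7 (AT1G19050), ARR8 (AT2G41310), ARR9 (AT3G57040), ARR15 (AT1G74890), ARR16 (AT2G40670) and ARR17 (AT3G56380). The family was chosen because ARR7 and ARR15 were among the largest falls from wild type in these same libraries, so differences from wild type are given below as a description, with no test. Of the 10 members, 9 passed the filter on low counts, and ARR17 did not. RNA was sequenced from rosettes of 2-week-old plants of the Ws-0 accession, in 3 libraries for each of 4 groups. The groups were untreated wild type, the untreated loss-of-function mutant lsd1-1, LSD1-GFP, an untreated line with a fusion of LSD1 to green fluorescent protein behind the 35S promoter, and a line in which that promoter drives a fusion of LSD1 to the glucocorticoid receptor domain. The last was exposed to 30 µM dexamethasone, which lets a receptor fusion enter the nucleus, and is called LSD1-GR+DEX. The 35S promoter is active in most tissues, so neither fusion follows the native pattern of LSD1. LSD1-GR seedlings grew on nylon mesh and were moved to the drug, and the samples analysed here include no untreated LSD1-GR plants and no wild type on dexamethasone, so transgene, drug and transfer cannot be told apart in that group. Whether a group is 1 transgenic line or several is not given in the sources used here.

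Cytokinins are plant hormones that promote cell division and leaf growth and delay leaf senescence. Histidine kinase receptors pass a phosphate through carrier proteins (AHPs) to response regulators. Type-B response regulators are transcription factors that then switch on target genes, the type-A genes among the first. Type-A proteins hold a receiver domain but no DNA-binding domain, and they dampen the pathway, which makes their transcripts both a readout of cytokinin signalling and a feedback brake on it. LSD1 is a zinc finger protein known for holding back the spread of cell death.

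The 250 bases upstream of the start of the counted transcript model were read from the TAIR10.1 assembly for every member, because type-B factors are known to bind short sites with a GATT core. The windows of the ARR7 and ARR15 sister pair, which led to the choice of the family, and of the ARR5 and ARR6 pair are shown, in the direction of transcription. Capitals mark AGATT and GGATT on either strand, so that AATCT and AATCC are the same motifs read from the other strand. All 4 genes lie on the minus strand, ARR7 at chr1:6579315-6579564, ARR15 at chr1:28133026-28133275, ARR5 at chr3:17760951-17761200 and ARR6 at chr5:25254319-25254568.
ARR7: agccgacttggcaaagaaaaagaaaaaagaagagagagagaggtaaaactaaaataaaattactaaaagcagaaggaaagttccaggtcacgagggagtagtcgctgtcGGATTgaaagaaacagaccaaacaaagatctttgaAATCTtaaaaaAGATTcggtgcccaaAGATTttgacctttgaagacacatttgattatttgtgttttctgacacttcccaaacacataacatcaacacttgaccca
ARR15: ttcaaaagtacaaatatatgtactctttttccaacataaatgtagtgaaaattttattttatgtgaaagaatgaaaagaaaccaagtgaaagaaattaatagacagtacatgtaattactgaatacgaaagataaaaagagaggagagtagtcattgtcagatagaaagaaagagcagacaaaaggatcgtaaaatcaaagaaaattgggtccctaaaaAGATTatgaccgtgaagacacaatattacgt
ARR5: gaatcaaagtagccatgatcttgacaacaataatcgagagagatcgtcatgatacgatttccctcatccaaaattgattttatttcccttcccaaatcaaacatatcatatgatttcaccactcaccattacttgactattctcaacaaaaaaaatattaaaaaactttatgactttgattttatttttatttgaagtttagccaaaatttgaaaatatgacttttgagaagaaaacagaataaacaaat
ARR6: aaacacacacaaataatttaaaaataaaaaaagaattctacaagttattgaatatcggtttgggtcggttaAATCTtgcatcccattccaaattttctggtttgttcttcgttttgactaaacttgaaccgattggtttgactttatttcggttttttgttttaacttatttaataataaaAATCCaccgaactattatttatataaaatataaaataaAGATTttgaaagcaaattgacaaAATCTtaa
The ARR7 and ARR6 windows each held 3 AGATT and 1 GGATT, the ARR15 window held 1 AGATT, and the ARR5 window held neither motif. Over the family, AGATT stood in 8 of 10 windows, against 63.6% of 26694 promoters of the same length, and GGATT in 5 of 10, against 37.9%. The longer word AAGATT, which contains AGATT, stood in 6 of 10 windows, against 30.4% of all promoters. ARR16 had the most AGATT matches, with 4, and ARR4 had 1 GGATT and no AGATT. Other transcript models start further upstream, so 157 bases of the ARR3 window, 181 of ARR16, 171 of ARR17 and all 250 of ARR9 lie inside the member's own annotated gene. Among the 6 windows that lie outside it, 4 held AGATT, 4 GGATT and 3 AAGATT. The ARR9 window also overlapped an exon of another gene for 141 bases. A match is a description of letters and not of a bound site.

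Each library held between 9781360 and 11503432 counts. Levels are in CPM, counts divided by the scaled size of the library, and comparisons between genes use CPM per kb of transcript. LSD1 stood at 23.57 CPM in wild type, with 1, 2 and 0 counts in the lsd1-1 libraries, at 2351 CPM in LSD1-GFP and at 178 CPM in LSD1-GR+DEX. The leaf genes RBCS1A and RCA were abundant in every group, whereas the meristem markers WUS and CLV3 were at 0 or 1 count in each library and the root stem cell marker WOX5 did not pass 0.946 CPM. Summed CPM of 9 shoot meristem markers lay between 28.3 and 41.6 in all 12 libraries. The sum of 4 mesophyll markers was 38675 to 45099 CPM in LSD1-GFP, against 26771 to 33949 in wild type, 26279 to 30497 in lsd1-1 and 24689 to 26585 in LSD1-GR+DEX. Of 12 clock genes, 1 was higher and 2 lower than wild type in lsd1-1. LSD1-GFP had 6 higher and 3 lower, while LSD1-GR+DEX had 3 higher and 5 lower. For all tested genes, the shares higher and lower at an edgeR adjusted p below 0.05 were 5.19% and 3.10% for lsd1-1. The LSD1-GFP shares were 15.5% and 13.6%, while LSD1-GR+DEX had 19.3% and 16.7%. GI, an evening-phased gene, stood at 5.63 CPM in wild type, 19.4 in lsd1-1, 47.7 in LSD1-GFP and 53.5 in LSD1-GR+DEX. The rise of GI passed the test of edgeR in each line, with adjusted p = 0.00709, 4.46e-05 and 2.11e-05 in that order. TOC1 stood at 25.9 CPM in wild type, 26.4 in lsd1-1, 61.5 in LSD1-GFP and 29.7 in LSD1-GR+DEX. In the same order of groups, CCA1 stood at 1204, 1206, 958 and 938 CPM and LHY at 2054, 1851, 1383 and 1601. The hour of harvest is not given in the sources used here, and the part of leaf makeup and of the clock in the values below was not tested. In whole rosettes, fewer cells that express a gene and less RNA in each of them cannot be told apart.

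In wild-type rosettes the family spanned more than 2 orders of magnitude. ARR7 led with 149 ± 29.7 CPM per kb (mean ± SD, n = 3), followed by ARR4 with 121 ± 9.40, and the ranges of these neighbours overlapped. ARR8 (64.7 ± 7.82 CPM per kb), ARR9 (59.6 ± 4.96), ARR6 (50.1 ± 7.88), ARR5 (34.6 ± 10.3) and ARR15 (31.7 ± 10.7) formed a middle run in which each gene overlapped the next. ARR16 (7.11 ± 1.59 CPM per kb) and ARR3 (1.01 ± 0.465) stood apart at the low end, and ARR17 was at 0.121. The summed level of the family was 519 CPM per kb in wild type, 263 in lsd1-1, 153 in LSD1-GFP and 186 in LSD1-GR+DEX. The order changed between groups: ARR4 had the highest mean in lsd1-1, LSD1-GFP and LSD1-GR+DEX, although it overlapped ARR7 in the first and the last of these, and ARR7 took 28.7% of the summed level in wild type but 18.1% in LSD1-GFP. The share of ARR15 was 6.10% in wild type and 2.14% in LSD1-GR+DEX.

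**Figure D1:**
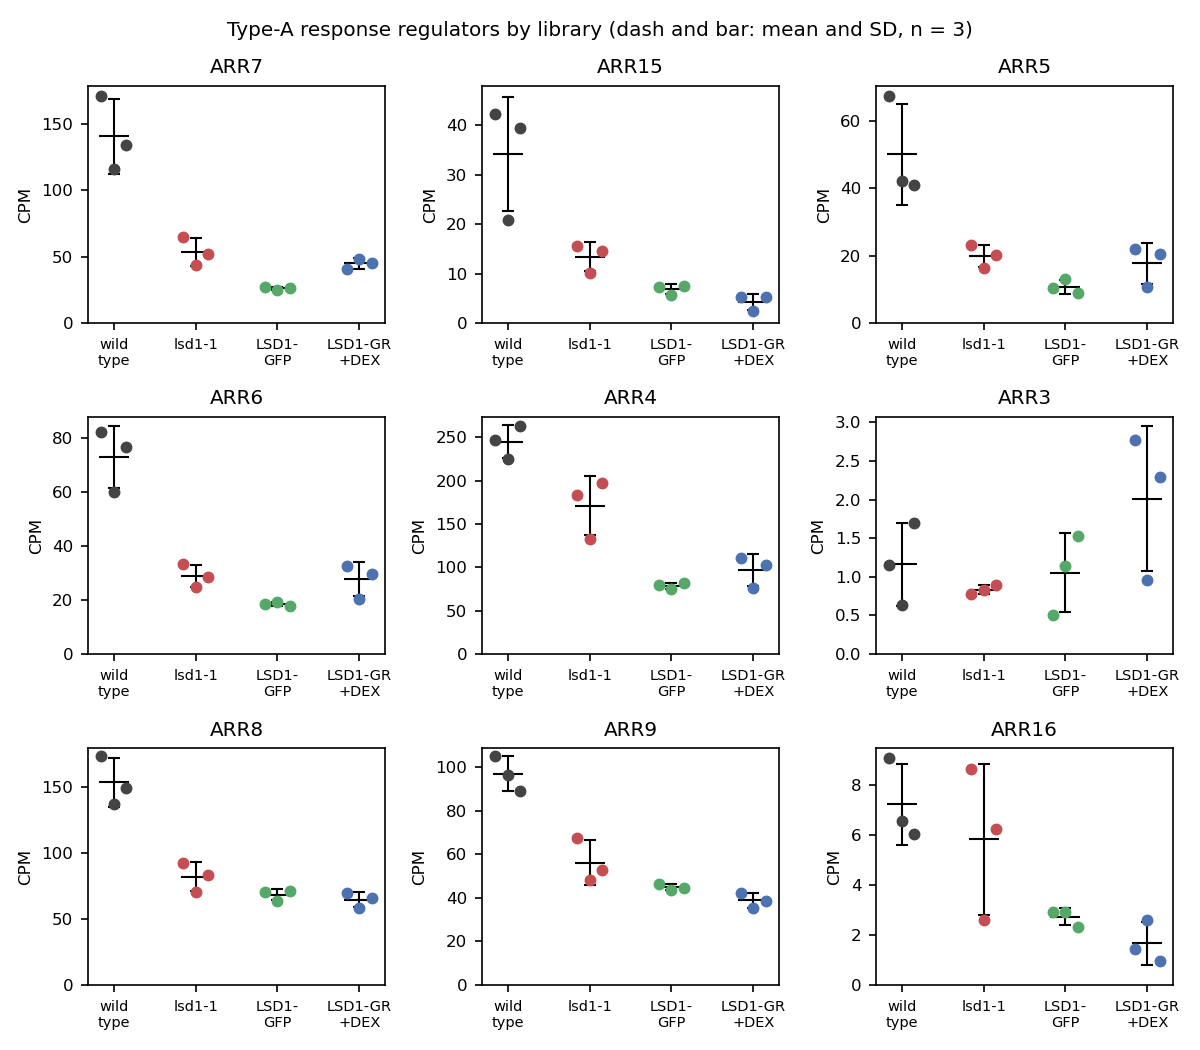
Level of 9 type-A response regulators in each of the 12 libraries, in CPM on axes that start at 0 and differ between panels. Points are libraries in the order of replicates 1 to 3, and the dash and bar give the mean and SD of a group. For ARR4, ARR5, ARR6, ARR7, ARR8, ARR9 and ARR15 all wild-type points lie above every other point, and for ARR3 wild type overlaps every line.

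ARR7 is induced early by cytokinin and is known as a target that WUSCHEL represses in the shoot meristem. In CPM its wild-type libraries stood at 171.1, 116.1 and 134.3, those of lsd1-1 at 64.4, 43.7 and 52.0, those of LSD1-GFP at 27.0, 24.7 and 26.6, and those of LSD1-GR+DEX at 40.7, 48.5 and 45.4. Wild type was above every library of the 3 lines, and LSD1-GFP was below all others. The fitted level was 38.0% of wild type in lsd1-1 (log2 difference -1.40, SE 0.15), 18.6% in LSD1-GFP (-2.43, SE 0.16) and 32.0% in LSD1-GR+DEX (-1.65, SE 0.15).

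ARR15, the closest relative of ARR7 and likewise a target of auxin response in the meristem, showed another order among the lines. Its wild-type libraries stood at 42.2, 20.9 and 39.4 CPM, lsd1-1 at 15.5, 10.02 and 14.6, LSD1-GFP at 7.35, 5.68 and 7.52, and LSD1-GR+DEX at 5.19, 2.40 and 5.24. Here the dexamethasone-treated line, not LSD1-GFP, was the lowest group, and no 2 groups overlapped. The level was 39.2% of wild type in lsd1-1 (log2 difference -1.35, SE 0.28), 20.0% in LSD1-GFP (-2.32, SE 0.30) and 12.6% in LSD1-GR+DEX (-2.99, SE 0.32).

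ARR5, whose promoter is a standard reporter of cytokinin response, and its sister ARR6 had a common pattern. ARR5 stood at 67.4, 42.2 and 40.8 CPM in wild type, 23.2, 16.4 and 20.2 in lsd1-1, 10.5, 13.0 and 8.94 in LSD1-GFP, with LSD1-GR+DEX at 22.0, 10.8 and 20.5. ARR6 stood at 82.2, 60.1 and 76.8 CPM in wild type, 33.2, 24.9 and 28.6 in lsd1-1, 18.5, 19.2 and 17.8 in LSD1-GFP, with LSD1-GR+DEX at 32.7, 20.6 and 29.8. Both were highest in wild type without overlap and lowest on average in LSD1-GFP. The log2 differences of ARR5 from wild type were -1.33 (SE 0.26), -2.21 (SE 0.28) and -1.49 (SE 0.27) in lsd1-1, LSD1-GFP and LSD1-GR+DEX. Those of ARR6 were -1.34 (SE 0.16), -1.98 (SE 0.17) and -1.40 (SE 0.16).

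ARR4, known to bind phytochrome B and to stabilise its active form, was the most abundant member in CPM. Its libraries stood at 246.6, 225.0 and 262.8 CPM in wild type, 183.8, 132.7 and 196.7 in lsd1-1, 79.2, 74.5 and 81.8 in LSD1-GFP, with LSD1-GR+DEX at 110.9, 75.7 and 103.2. The distance from wild type was small in lsd1-1 (log2 difference -0.52, SE 0.15) and larger in LSD1-GFP (-1.64, SE 0.15) and LSD1-GR+DEX (-1.34, SE 0.15). Its sister ARR3 was near the limit of detection, with 0.628 to 1.70 CPM in wild type, 0.775 to 0.892 in lsd1-1, 0.503 to 1.52 in LSD1-GFP and 0.961 to 2.77 in LSD1-GR+DEX. The wild-type range of ARR3 overlapped that of every line, and its log2 differences were -0.46 (SE 0.50), -0.13 (SE 0.49) and 0.80 (SE 0.43). Without replicate 2 of LSD1-GR+DEX, the last of these was 1.103.

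ARR8 and ARR9 form a sister pair that is less strongly induced by cytokinin than the other members. ARR8 stood at 173.7, 137.2 and 149.5 CPM in wild type, 92.1, 70.8 and 83.4 in lsd1-1, 70.5, 63.4 and 71.2 in LSD1-GFP, with LSD1-GR+DEX at 69.4, 58.4 and 65.7. ARR9 stood at 105.2, 96.4 and 89.1 CPM in wild type, 67.5, 48.1 and 52.8 in lsd1-1, 46.4, 43.6 and 44.5 in LSD1-GFP, with LSD1-GR+DEX at 42.4, 35.5 and 38.5. Wild type did not overlap any line in either gene, and the spread between the lines was narrow. The levels of ARR8 were 53.5%, 44.6% and 42.1% of wild type in lsd1-1, LSD1-GFP and LSD1-GR+DEX, and those of ARR9 were 57.9%, 46.3% and 40.1%.

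ARR16 and ARR17, which have the shortest coding sequences of the family, have been linked to divisions in the stomatal lineage. ARR16 stood at 9.06, 6.55 and 6.05 CPM in wild type, 8.62, 2.60 and 6.24 in lsd1-1, 2.92, 2.93 and 2.34 in LSD1-GFP, with LSD1-GR+DEX at 1.43, 2.60 and 0.954. In lsd1-1 the libraries were far apart and overlapped wild type (log2 difference -0.31, SE 0.35), and without lsd1-1 replicate 2 the difference was 0.04. Both overexpressing lines lay below wild type, by -1.40 (SE 0.38) in LSD1-GFP and -2.12 (SE 0.41) in LSD1-GR+DEX. ARR17 had 2 counts over the 3 wild-type libraries, 1 in lsd1-1, 0 in LSD1-GFP and 8 in LSD1-GR+DEX (exact Poisson 95% interval 3.45 to 15.8, counting error only). A count of 0 allows up to 3 counts over the group, and no comparison of ARR17 was made.

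Against wild type, the calls of edgeR at an adjusted p below 0.05 only restate how the family was chosen and are given as a description. In lsd1-1, 0 of 9 members were called higher, where 5.19% of 19487 genes were, and 7 were called lower, where 3.10% were; ARR3 and ARR16 were not called. The median log2 difference was -0.90, against -0.01 over all genes. In LSD1-GFP, 0 members were called higher (15.5% of all genes) and 8 lower (13.6%), with a median of -1.64. In LSD1-GR+DEX, 0 were called higher (19.3%) and 8 lower (16.7%), with a median of -1.40. ARR3 was the member not called in either overexpressing line. Called falls without overlap, with a mean of at least 5 CPM in the higher group, were ranked by size. In lsd1-1, ARR7 was 4th among 580, ARR15 was 8th, ARR6 10th and ARR5 11th. In LSD1-GFP, ARR7 was 13th of 2283 and ARR15 18th. In LSD1-GR+DEX, ARR15 was 3rd of 2971, ARR16 25th and ARR7 60th. The other called members ranked lower in each line. These 3 comparisons share the wild-type libraries. With replicate number as a block, 2889 instead of 1617 genes were called in lsd1-1, and the members called were 7, 8 and 8 as before. With 1 library left out, the members called ran from 5 to 7 in lsd1-1 (5 when replicate 1 or replicate 3 of wild type or replicate 2 of lsd1-1 was absent), from 7 to 8 in LSD1-GFP and from 8 to 9 in LSD1-GR+DEX. Genes called in those fits ran from 764 to 1375, from 4157 to 5263 and from 5566 to 6526, against 1617, 5662 and 7015 with all libraries.

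**Figure D2:**
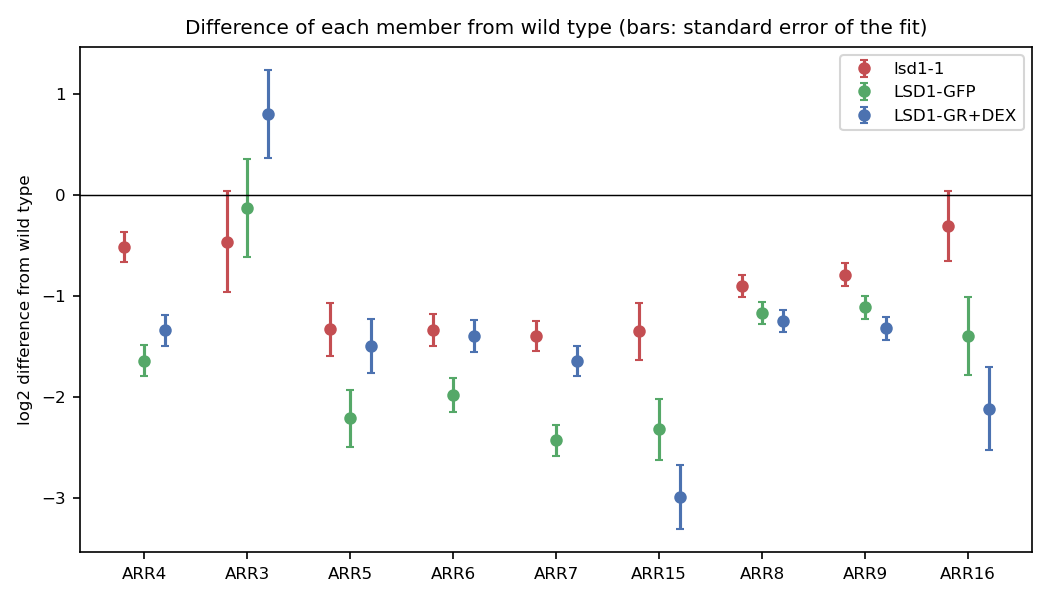
Log2 difference from wild type of 9 members in lsd1-1, LSD1-GFP and LSD1-GR+DEX, with bars for the standard error of the edgeR fit and sister genes side by side. LSD1-GFP lies lowest for ARR7 (-2.43), LSD1-GR+DEX lies lowest for ARR15 (-2.99), and ARR3 lies at -0.46, -0.13 and 0.80 in the order of lines above.

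The comparisons between lines do not use wild type and were tested, although each line enters 2 of them. ARR7 and ARR15 were picked for their low values in these lines, so their comparisons between lines are given with no p. The counts of members called that include them are to that extent a description. In LSD1-GFP against lsd1-1, 5 of 9 members were called lower and 0 higher, while 12.8% of all genes were called lower and 13.6% higher. ARR4 fell by 1.12 on the log2 scale (SE 0.15, edgeR adjusted p = 0.000167), and the difference of ARR7 was -1.03 (SE 0.16). ARR6 fell by 0.64 (adjusted p = 0.0138), ARR5 by 0.88 (adjusted p = 0.0479) and ARR15 by 0.97. The calls of ARR5 and ARR15 were lost in limma voom, with no low-count filter, and without any 1 library of these groups other than lsd1-1 replicate 2. A replicate block in the fit of all 12 libraries, LSD1-GR+DEX included, gave 8 of 9 members. ARR8 (edgeR adjusted p = 0.0048), ARR9 (0.00521) and ARR16 (0.0474) joined. Same-numbered replicates did not deviate together in comparisons with LSD1-GR+DEX. The same block raised genes called in lsd1-1 against wild type from 1617 to 2889. The added members are thus not read as particular to the family. In LSD1-GFP against lsd1-1, leaving out lsd1-1 replicate 2 also gave 8 members, and leaving out lsd1-1 replicate 1 gave 2. Over the fits with 1 library left out, genes called ran from 3646 (without lsd1-1 replicate 1) to 4479, against 5159 with all libraries. ARR3 did not differ by the test (0.33, adjusted p = 0.683).

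LSD1-GR+DEX and LSD1-GFP both carry LSD1 fusions, and 2 of 9 members were called between them, both higher in LSD1-GR+DEX, where 16.5% of all genes were higher and 16.2% lower. ARR7 was 1.72-fold higher (log2 difference 0.78, SE 0.16) and ARR6 1.498-fold higher (0.58, SE 0.17, edgeR adjusted p = 0.0189). The ARR7 libraries of the groups did not overlap, and neither did those of ARR6. ARR5 (0.72, adjusted p = 0.0882) and ARR4 (0.30, adjusted p = 0.150) did not pass. ARR15 (-0.67, SE 0.36), ARR16 (-0.72, adjusted p = 0.254), ARR9 (-0.21, adjusted p = 0.191) and ARR8 (-0.08, adjusted p = 0.601) had estimates on the other side of 0. Without LSD1-GR+DEX replicate 2, 5 members were called, and without LSD1-GFP replicate 1, LSD1-GFP replicate 3, LSD1-GR+DEX replicate 1 or LSD1-GR+DEX replicate 3 ARR6 was lost and 1 remained. Genes called ran from 4996 (without LSD1-GFP replicate 1) to 6165 (without LSD1-GR+DEX replicate 2), against 6386 with all libraries.

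In LSD1-GR+DEX against lsd1-1, 5 of 9 members were called lower and 0 higher, while 8.40% of all genes were called lower and 9.40% higher. ARR16 fell by 1.80 on the log2 scale (SE 0.42, edgeR adjusted p = 0.00979) to 28.6% of the lsd1-1 level, and the difference of ARR15 was -1.64 (SE 0.34), or 32.2% of that level. ARR4 fell by 0.82 (adjusted p = 0.00243), ARR9 by 0.53 (adjusted p = 0.0058) and ARR8 by 0.35 (adjusted p = 0.0428), and the last call was lost without lsd1-1 replicate 1, lsd1-1 replicate 3 or any 1 library of LSD1-GR+DEX, and in the fit of these groups alone. ARR5 (-0.16, adjusted p = 0.739) and ARR6 (-0.06, adjusted p = 0.842) did not pass, the difference of ARR7 was -0.25 (SE 0.15), and the libraries of all 3 overlapped those of lsd1-1. ARR3 was higher in every LSD1-GR+DEX library than in any lsd1-1 library but missed the threshold (1.26, SE 0.46, adjusted p = 0.0731).

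Ratios of sister genes within a library do not depend on how libraries are scaled. The count ratio of ARR7 to ARR15 was 4.05, 5.55 and 3.41 in wild type, 4.16, 4.36 and 3.55 in lsd1-1 and 3.67, 4.35 and 3.54 in LSD1-GFP. In LSD1-GR+DEX it was 7.84, 20.2 and 8.65, above all 9 other libraries. As both genes led to the choice of the family, this is a description. The ratio of ARR6 to ARR5 overlapped between all groups, with means of 1.51, 1.46, 1.75 and 1.62 in the order above. The ratio of ARR8 to ARR9 varied little in size, but at 1.64, 1.65 and 1.71 in LSD1-GR+DEX it lay above the 1.36, 1.47 and 1.58 of lsd1-1 and the 1.52, 1.45 and 1.60 of LSD1-GFP. In both cases the exact permutation test gave a two-sided p of 0.1. That is the smallest p that 3 against 3 libraries allow, so no comparison of these ratios could pass a threshold of 0.05. The ratio of ARR4 to ARR3 in LSD1-GR+DEX, at 40.0, 78.7 and 45.1, did not overlap wild type or lsd1-1, and that of LSD1-GFP did not overlap lsd1-1. The coding sequences of ARR7 and ARR15 were 79.0% identical over aligned bases, those of ARR3 and ARR4 83.2%, ARR5 and ARR6 81.4%, ARR8 and ARR9 81.3% and ARR16 and ARR17 84.1%. The longest run shared by sisters was 41 bases, in the ARR3 and ARR4 pair and in the ARR8 and ARR9 pair, and how reads that match several genes were counted is not given in the sources used here. Mean count ratios of ARR4 to ARR3 were 242, 206, 92.2 and 54.6 in wild type, lsd1-1, LSD1-GFP and LSD1-GR+DEX, so the low values of ARR3 are uncertain where reads of the sisters cannot be told apart.

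**Figure D3:**
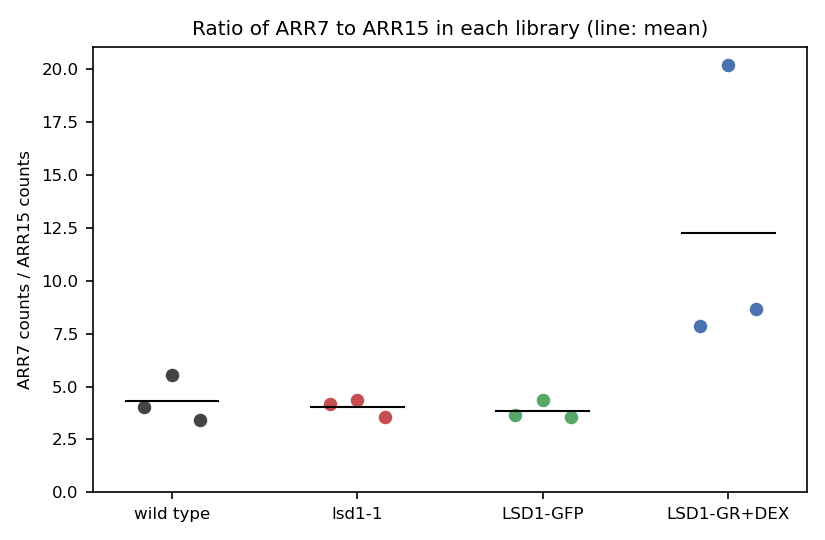
Ratio of ARR7 counts to ARR15 counts in each of the 12 libraries by group, on an axis that starts at 0, with a line at the group mean. The 3 libraries of LSD1-GR+DEX lie between 7.84 and 20.2, above all libraries of the other groups, which lie between 3.41 and 5.55.

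Within LSD1-GR+DEX, replicate 2 stood apart. Over genes, the chi-square statistic per gene was 2.29 between replicates 1 and 3 but 12.1 and 14.04 between each of them and replicate 2. Wild type had a similar split, with 3.49 between replicates 1 and 2 but 10.6 and 11.4 between each of them and replicate 3. The summed level of 7 root markers was 35.2 and 34.8 CPM in replicates 1 and 3 and 14.5 in replicate 2, against 12.5 to 21.7 in the other groups. CASP1, EXPA7, COBL9, RHD6 and PLT2 were each lowest in replicate 2. WOX5 was highest there, at 0.769 CPM against 0.537 and 0.668, and PLT1, at 1.06, lay between replicates 1 (0.805) and 3 (1.14). Type-A members followed the summed root markers in part: ARR5 was at 22.0 and 20.5 CPM in replicates 1 and 3 and at 10.8 in replicate 2, and ARR3 at 2.77 and 2.29 against 0.961. ARR17 had 3, 1 and 4 counts in replicates 1, 2 and 3. ARR7 and ARR16 went the other way, with their highest value in replicate 2. Of the 9 members, 7 had their lowest LSD1-GR+DEX value in replicate 2. This was not particular to that group, as 6 were lowest in replicate 2 of wild type, 8 in that of lsd1-1 and 5 in that of LSD1-GFP. The part of root tissue in these values was not tested.

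**Figure D4:**
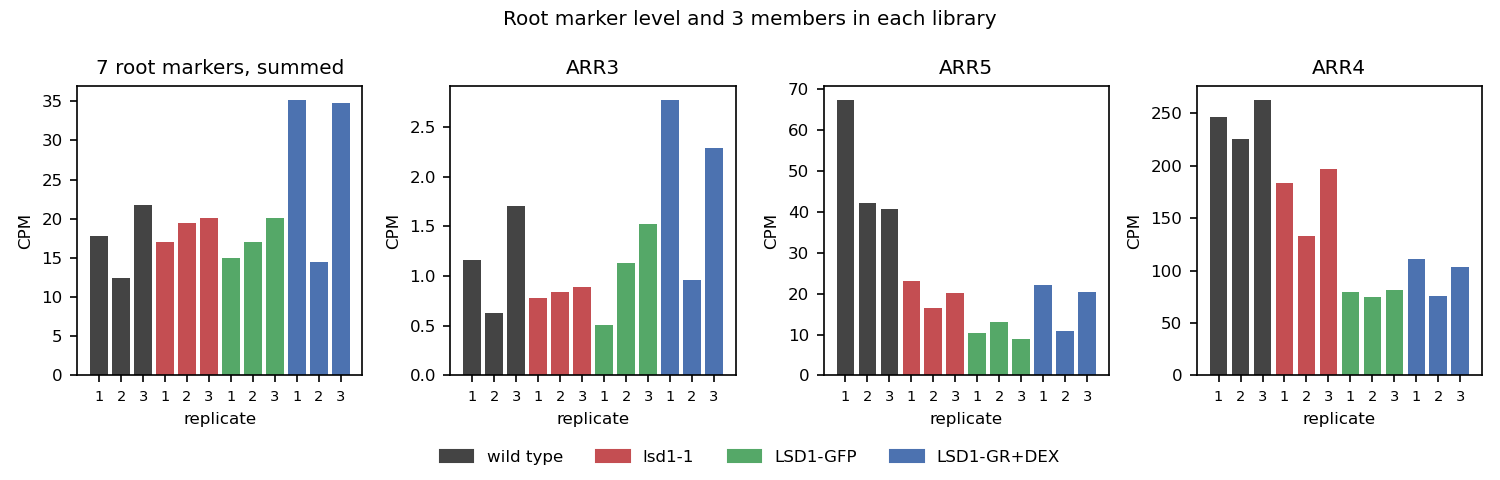
Summed CPM of 7 root markers and CPM of ARR3, ARR5 and ARR4 in each library, as bars from 0 with replicates 1 to 3 in each group. Replicates 1 and 3 of LSD1-GR+DEX have root marker sums of 35.2 and 34.8 CPM, above the other 10 libraries, and are above replicate 2 of that group for all 3 members.

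Across the 12 libraries, the transcript most like ARR7 among 15270 genes with a mean of at least 5 CPM was CRF5, a cytokinin response factor of the AP2 family (Pearson r of log2 CPM 0.98). It was followed by AT1G49200 (0.97), AT2G30600 (0.96), TCP10, a leaf growth transcription factor (0.96), and AT4G38840 (0.96). Among members, ARR6 was the most like ARR7 (0.96), then ARR5 (0.93) and ARR8 (0.92), whereas ARR15 had 0.80. The genes most like ARR15 were RBP-DR1, an RNA-binding protein (0.99), CPUORF7 (0.98), AT4G26540 (0.98), HB30 (0.97) and ACL (0.97), and the closest members were ARR9 and ARR8 (both 0.94). These likenesses include the differences between groups and are a description.

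The other cytokinin genes were taken as 10 lists by role, from hormone supply to response, of which 46 genes were tested. In lsd1-1, 1 was higher and 2 lower than wild type, beside 5.19% and 3.10% of all genes. In LSD1-GFP, 3 were higher and 14 lower, beside 15.5% and 13.6%, and in LSD1-GR+DEX, 4 were higher and 13 lower, beside 19.3% and 16.7%. The median log2 differences of the 46 genes were -0.03, -0.05 and 0.07. Among the 3 receptors, AHK4 was at 57.1 CPM in wild type and fell by 0.51 in LSD1-GFP (edgeR adjusted p = 0.00961) and by 0.52 in LSD1-GR+DEX (adjusted p = 0.00731). AHK2 fell by 0.32 in both (adjusted p = 0.0134 and 0.0109), and AHK3, at 123 CPM in wild type, did not pass in any line. In lsd1-1, 0 of the 3 receptors were called. In the fit without a replicate block, none of the 5 tested phosphotransfer proteins was called against wild type in any line. AHP5 came closest in LSD1-GFP (0.38, adjusted p = 0.0507). Of 6 tested type-B regulators, ARR1, a main activator of the type-A genes, was the only one called, and it fell by 0.27 in LSD1-GFP (adjusted p = 0.0085) and by 0.20 in LSD1-GR+DEX (adjusted p = 0.0376). KMD1, an F-box protein that marks type-B regulators for breakdown, fell by 1.20 in LSD1-GR+DEX (adjusted p = 0.00121).

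Of the 4 glucosyltransferases, 1 was higher in lsd1-1, 1 was higher and 2 lower in LSD1-GFP, and 2 were higher and 2 lower in LSD1-GR+DEX. UGT85A1, which glucosylates zeatin, was at 13.3 CPM in wild type and rose to 47.0 in lsd1-1 (log2 difference 1.82, SE 0.18, edgeR adjusted p = 0.000101), to 22.3 in LSD1-GFP (0.74, adjusted p = 0.0113) and to 61.9 in LSD1-GR+DEX (2.22, adjusted p = 3.3e-06). UGT73C1, which also takes foreign compounds as substrates, rose from 2.82 to 34.2 CPM in LSD1-GR+DEX (3.59, SE 0.38, adjusted p = 3.96e-05). UGT76C1 and UGT76C2, which glucosylate cytokinins on nitrogen, both fell in the overexpressing lines, UGT76C2 by 1.27 in LSD1-GFP (adjusted p = 9.68e-05) and by 0.97 in LSD1-GR+DEX (adjusted p = 0.00045). Of 5 tested cytokinin oxidases, 2 were lower in LSD1-GFP and 1 in LSD1-GR+DEX. CKX4 was at 11.5 CPM in wild type, fell to 4.96 in LSD1-GFP (-1.21, SE 0.18, adjusted p = 0.000278) and was at 11.9 in LSD1-GR+DEX. CKX1 fell by 0.90 in LSD1-GFP (adjusted p = 0.00428) and CKX6 by 0.36 in LSD1-GR+DEX (adjusted p = 0.0191). LOG7, which releases active cytokinin, rose by 0.57 in LSD1-GR+DEX (adjusted p = 0.037). Its LSD1-GR+DEX libraries stood at 11.0, 6.63 and 11.5 CPM, so replicate 2 lay within the wild-type range of 5.67 to 7.09. The synthesis gene IPT9, which acts on transfer RNA, was the only one of 5 tested synthesis genes called against wild type, and it fell by 0.46 in LSD1-GFP (adjusted p = 0.0104).

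Of 5 tested cytokinin response factors, 1 was lower in lsd1-1, 2 were higher and 2 lower in LSD1-GFP, and 1 was higher and 2 lower in LSD1-GR+DEX. CRF5 stood at 38.2, 27.6 and 34.7 CPM in wild type, 18.6, 11.97 and 18.6 in lsd1-1, 10.8, 9.84 and 10.2 in LSD1-GFP, with LSD1-GR+DEX at 15.6, 17.6 and 15.4. It fell by 1.03 (SE 0.16, edgeR adjusted p = 0.00106), 1.71 (SE 0.16, adjusted p = 8.69e-06) and 1.05 (SE 0.16, adjusted p = 0.000163) in the 3 lines. As with ARR7, LSD1-GFP was the lowest group, and CRF5 was higher in LSD1-GR+DEX than in LSD1-GFP (0.66, adjusted p = 0.00898). CRF2 fell by 1.29 in LSD1-GFP (adjusted p = 0.00286) and by 1.87 in LSD1-GR+DEX (adjusted p = 0.00026). CRF3 and CRF4 rose in LSD1-GFP, by 0.75 and 1.17 (adjusted p = 0.0322 and 0.00178), and CRF6 rose in LSD1-GR+DEX by 0.59 (adjusted p = 0.00851). Of 6 other genes that respond to cytokinin, 1 was lower in lsd1-1 and 4 were lower in each overexpressing line, with 0 higher. CGA1, a GATA factor that promotes chloroplast development, stood at 102 CPM in wild type, 63.1 in lsd1-1, 47.2 in LSD1-GFP and 19.8 in LSD1-GR+DEX. It fell in all 3 lines (log2 differences -0.69, -1.11 and -2.36, adjusted p = 0.00846, 9.54e-05 and 3.66e-07), and as with ARR15, LSD1-GR+DEX was the lowest group. Its relative GNC, the auxin repressor IAA3 and the expansin EXPA1 were called lower in both overexpressing lines, EXPA1 by 0.89 and 1.99 (adjusted p = 0.0049 and 2.06e-05). LBD3 (0.64, 0.98 and 0.42 in the 3 lines, adjusted p = 0.359, 0.0526 and 0.405) and CYCD3;1 (0.08, 0.14 and 0.31, adjusted p = 0.829, 0.492 and 0.107) had estimates above 0. Neither passed in the fit without a replicate block.

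**Figure D5:**
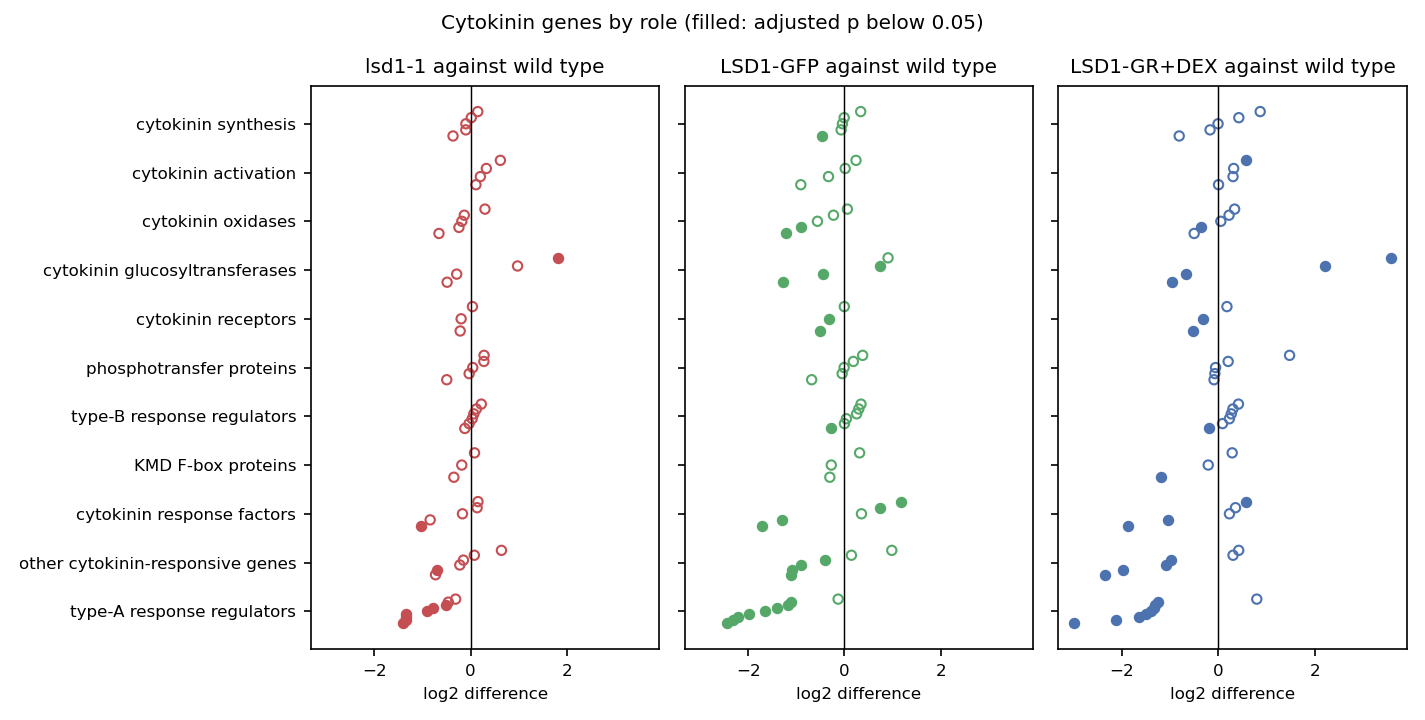
Log2 difference from wild type of 46 tested cytokinin genes and 9 members, in rows by role and in 1 panel for each line, with filled points where edgeR's adjusted p was below 0.05. The 3 receptors lie between -0.52 and 0.18, the phosphotransfer gene AHP4 reaches 1.48 in LSD1-GR+DEX without passing the test, and most type-A points lie to the left; the members were chosen from these differences.

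Between the lines, 4 of the same 46 genes were higher and 9 lower in LSD1-GFP against lsd1-1, beside 13.6% and 12.8% of all genes. In LSD1-GR+DEX against LSD1-GFP, 8 were higher and 7 lower, beside 16.5% and 16.2%, and in LSD1-GR+DEX against lsd1-1, 3 were higher and 6 lower, beside 9.40% and 8.40%. The phosphotransfer gene AHP4 was higher in LSD1-GR+DEX than in LSD1-GFP (2.12 against 0.465 CPM, log2 difference 2.16, SE 0.68, edgeR adjusted p = 0.0256), and AHP5 was lower (-0.43, adjusted p = 0.0247). The synthesis gene IPT3 was at 7.78 CPM in LSD1-GR+DEX and 17.3 in LSD1-GFP (-1.15, SE 0.37, adjusted p = 0.0365), and CKX4 was higher in LSD1-GR+DEX (1.26, SE 0.18, adjusted p = 0.000141). CKX4 was also lower in LSD1-GFP than in lsd1-1 (-1.08, SE 0.19, adjusted p = 0.000743). The type-B regulator ARR12 was higher in LSD1-GFP than in lsd1-1 (0.33, adjusted p = 0.0402).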

How the data were processed

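Raw counts per gene model, with no normalization, were deposited by the authors for 12 libraries. Per the submitters' processing notes, Trimmomatic 0.30, GSNAP and HTSeq 0.6.1 were used with the TAIR10 genome; the sources used here give no settings, strand handling or treatment of reads with several matches. In R 4.3.3, edgeR 4.0.16 fitted all 12 libraries in 1 robust quasi-likelihood model with TMM factors after filterByExpr (19487 of 27416 genes; biological coefficient of variation 11.2%). Contrasts were tested two-sided, with Benjamini-Hochberg adjustment over all genes tested and calls below 0.05. SE is the log2 difference divided by the square root of F. CPM is counts over the scaled library size. Lengths, positions and upstream windows came from the TAIR10.1 RefSeq annotation, read with Python; the count table holds no coordinates.

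The members and the cytokinin, clock and marker lists were chosen with earlier results of these data known; the lists were written from textbook knowledge. Named genes are all members, up to 3 called genes with the lowest adjusted p of each cytokinin list and comparison, every gene of a list of 3, the defining markers, and the 5 genes most like ARR7 and ARR15 (Pearson r of log2 CPM, prior count 2); not all are printed. Others were named after their values were seen, such as sister ratios. Same-numbered replicates deviated together (every correlation over 0.1, lowest 0.138) in comparisons among wild type, lsd1-1 and LSD1-GFP but not in those with LSD1-GR+DEX (lowest -0.03). Per the labels' protocols RNA was isolated in 3 biological repeats; whether these were separate growths is not stated, so p-values measure the spread between these samples. Alternatives were RLE factors, DESeq2 1.42.0, limma 3.58.1 voom, 2 other filters, a fit of 2 groups alone, a replicate block and leaving out each library. No table of protein sequences was used here.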

Additional observations from a re-analysis of the deposited data

Results flagged for a closer look

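Among the members and cytokinin genes, 2 had all libraries of lsd1-1 and all libraries of LSD1-GFP on opposite sides of every wild-type library. KMD2, an F-box gene of the family that targets type-B regulators, stood at 13.2 CPM in lsd1-1, 16.8 in wild type and 20.9 in LSD1-GFP. It was at 20.5 CPM in LSD1-GR+DEX. The direct comparison of LSD1-GFP with lsd1-1 gave a log2 difference of 0.66 (SE 0.12, edgeR adjusted p = 0.000881). In the fit without a replicate block, neither line passed the edgeR test against wild type (adjusted p = 0.0917 and 0.0537). LOG1, which releases active cytokinin, went the other way, with 30.0 CPM in lsd1-1, 24.0 in wild type and 19.0 in LSD1-GFP. In LSD1-GR+DEX, however, LOG1 was at 29.9 CPM, near the lsd1-1 level, with libraries at 24.3, 41.0 and 24.4. LSD1-GFP and lsd1-1 differed by -0.66 (SE 0.19, edgeR adjusted p = 0.0215). Without a replicate block, neither of these 2 lines passed the edgeR test against wild type (adjusted p = 0.359 and 0.220). Both genes were singled out for lying on opposite sides of wild type in these lines, so the direct comparisons restate that choice.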

How the results depend on the processing

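Of the log2 differences of members under the alternatives, 629 kept their direction and their side of the threshold, 38 lost a call, 20 gained one and 7 changed sign. The replicate block gave 2889 called genes in lsd1-1 against wild type and 5335 in LSD1-GR+DEX against lsd1-1, and members called were 8 in LSD1-GFP against lsd1-1 and 5 in LSD1-GR+DEX against LSD1-GFP. Limma voom called 3 members in LSD1-GFP against lsd1-1, and a fit of 2 groups alone called 3 in LSD1-GR+DEX against lsd1-1. With 1 library left out, genes called ran from 764 to 1375 in lsd1-1 against wild type (764 without wild type replicate 1) and from 2058 to 3502 in LSD1-GR+DEX against lsd1-1 (2058 without lsd1-1 replicate 1). Members called ran from 1 to 5 in LSD1-GR+DEX against LSD1-GFP and from 2 to 8 in LSD1-GFP against lsd1-1. Sign changes came only from leaving out a library and only where no call had been made. Over those fits, the log2 difference from wild type ran from -0.69 to 0.0395 for ARR16 in lsd1-1, from -0.48 to 0.25 for ARR3 in LSD1-GFP, from -0.0378 to 0.0767 for AHK3 in lsd1-1 and from -0.0359 to 0.0173 for AHK3 in LSD1-GFP. Against lsd1-1 it ran from -0.0142 to 0.66 for ARR3 in LSD1-GFP, from -0.35 to 0.0651 for ARR5 and from -0.20 to 0.0831 for ARR6 in LSD1-GR+DEX. The causes were not tested. Where 1 library was left out, the fit assumes that its group varies like the others. ARR3 rests on 5 to 31 counts per library, and ARR17 was too low to test.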

Other observations

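Of 9 members, 6 had their lowest wild-type level in replicate 2, 8 their lowest lsd1-1 level, 5 their lowest LSD1-GFP level and 7 their lowest LSD1-GR+DEX level. In LSD1-GFP, 3 of the others were lowest in replicate 3 and 1 in replicate 1, and in wild type the other 3 were lowest in replicate 3.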
